A study of Mus musculus with 64 samples.

Results

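Haloperidol was set directly against risperidone, the pair of antipsychotics in this series, in the nucleus accumbens (NAc) and the prefrontal cortex (PFCx) of the mouse. The libraries were chosen by their treatment label alone. They are 4 haloperidol and 4 risperidone libraries of each tissue, 16 of the 64 libraries of the series. Adult male C57BL/6N mice aged 8 to 10 weeks had received 1 intraperitoneal injection, of haloperidol at 1 mg/kg or of risperidone at 0.5 mg/kg, and the tissues were collected 2 h later. Either drug had been dissolved in saline acidified with a drop of hydrochloric acid, which is not stated for the saline given to the controls. RNA freed of ribosomal RNA was sequenced, and transcript abundance was given as FPKM, the fragments of a transcript corrected for its length and for the size of the library. The 2 doses differed, so the drug and its dose cannot be told apart. The labels number the libraries of a group from 1 to 4. They do not state whether each library came from a mouse of its own, nor whether the 2 tissues with the same number came from the same mouse, so the p-values measure the spread between these libraries, which may be technical. The 4 libraries per tissue of saline set I, prepared in the same sample set, are given as a level beside the drugs and were not compared with them by a test. Saline set I and the 4 libraries per tissue of methamphetamine, a psychostimulant injected at 2 mg/kg in mice of the same age and collected at the same time, entered 1 alternative fit, where they served only to estimate the spread between libraries.

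Haloperidol is a classical antipsychotic that blocks dopamine receptors of the D2 type. Risperidone is an atypical antipsychotic that blocks serotonin receptors of the 2A type as well as D2-type receptors. The spiny projection neurons of the NAc carry either D1-type or D2-type receptors. The D2 receptor lowers cyclic AMP when dopamine binds it, and blocking it is known to induce the early genes of the Fos and Egr families in the striatum. These genes encode transcription factors and signalling brakes whose transcripts appear within minutes to hours of neuronal activity. Glucocorticoids, the adrenal hormones of the stress response, induce another set of genes over the same hours.

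The depth of the 16 libraries, estimated from the coverage column, was 1.77 to 2.946 gigabases of aligned bases. The median depth was lower after haloperidol, at 2.41 against 2.64 gigabases after risperidone in the NAc and 2.08 against 2.44 in the PFCx. The tissue markers followed the labels: 15 genes shared by spiny neurons summed to 913 to 1139 FPKM in NAc and 198 to 262 FPKM in PFCx, and 14 markers of cortical projection neurons to 111 to 165 FPKM in NAc and 361 to 427 FPKM in PFCx. In the PFCx, haloperidol 4 and risperidone 4 stood apart from the rest: their median correlations with the other PFCx libraries were 0.976 and 0.978, and each was most like the other, at 0.983. PFCx risperidone 3 carried more spiny neuron RNA than its neighbours, with summed D2-type genes at 28.4 FPKM against 8.41 to 11.0 FPKM in the other 3.

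In the NAc, the early genes stood higher after haloperidol than after risperidone, with the largest median difference of the gene lists examined. The list was chosen with earlier results of these data known. The paper had already reported early genes such as Fosb, Arc and Junb as induced in the NAc by haloperidol and less by risperidone. The shares below, set against all genes, therefore describe the list and are not an independent test of it. Of the 50 early genes listed, 43 had a higher mean on the log2(FPKM + 1) scale after haloperidol. In 26 of the 50, all 4 haloperidol libraries lay above all 4 risperidone libraries, where 1.42% of all 37352 genes tested did so. In 0 of the 50 did all 4 risperidone libraries lie above, against 1.16% of all genes. The median difference of the 50 on the log2(FPKM + 1) scale was 0.30, and that of all genes was 0.00. At an unadjusted p under 0.05 in limma, 31 of the 50 were higher after haloperidol and 0 after risperidone, and over all genes those shares were 2.93% and 2.55%. None of the 50 passed the Benjamini-Hochberg adjustment over all genes in the NAc, where the lowest adjusted p of the list was 0.110 (limma). Leaving out each NAc library in turn left 27 to 30 of the genes at an unadjusted p under 0.05. The count without overlap was then 26 to 28, but it cannot fall when a library is left out, so nothing is read from it.

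**Figure D1:**
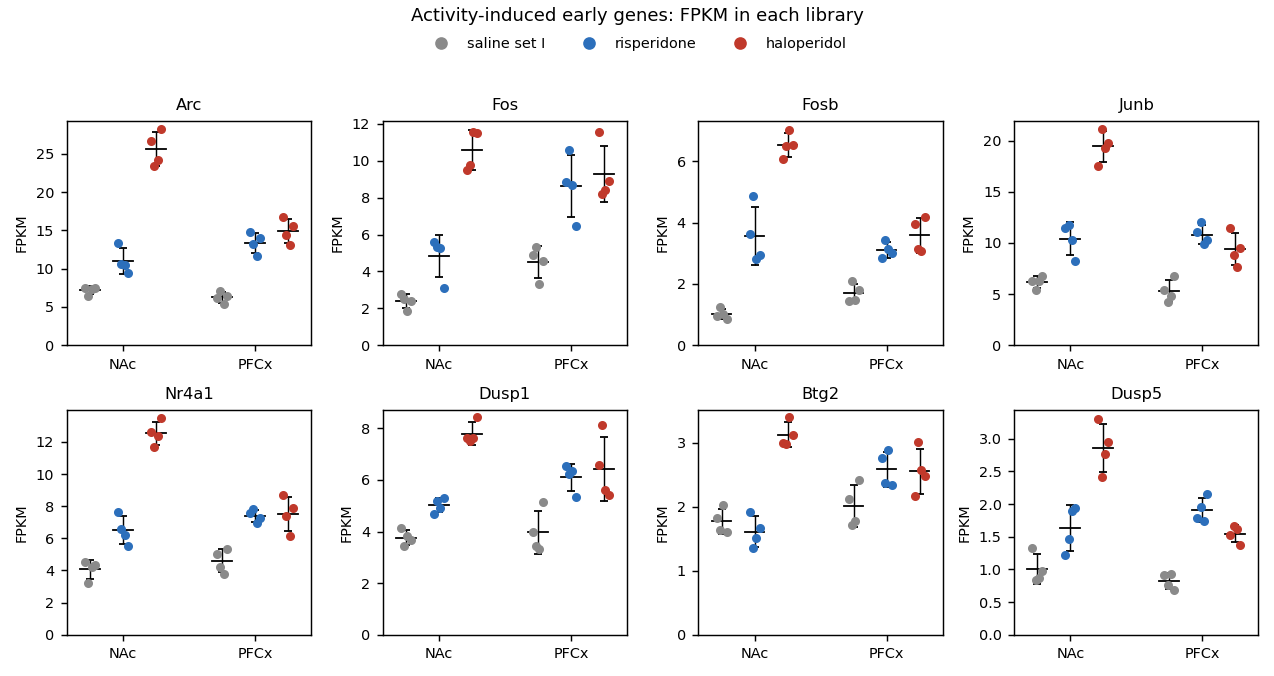
FPKM of 8 early genes in each library of saline set I (grey), risperidone (blue) and haloperidol (red) in the NAc and the PFCx. Points are libraries, black lines are means of 4 and bars are SD. In the NAc the 4 haloperidol points of each gene lie above the 4 risperidone points, while in the PFCx the groups overlap for 7 of the genes and risperidone lies above for Dusp5.

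Among the transcription factors of the list, Fos, a component of the AP-1 complex, read 9.51, 9.78, 11.6 and 11.5 FPKM after haloperidol and 5.58, 5.30, 5.28 and 3.11 FPKM after risperidone in the NAc, with saline at 1.87 to 2.79 FPKM. All haloperidol libraries lay above all risperidone libraries, and both drugs lay above saline. The difference was 1.01 (SE 0.17) on the log2(FPKM + 1) scale, 2.2-fold in mean FPKM, with an adjusted p of 0.423 (limma). Fosb, a partner of the same complex, read 6.07, 6.50, 7.02 and 6.53 FPKM against 3.64, 4.87, 2.82 and 2.93 FPKM. Its groups did not overlap and differed by 0.74 (SE 0.14, adjusted p = 0.510, limma). Junb, which pairs with the Fos proteins, read 17.6, 21.1, 19.3 and 19.8 FPKM after haloperidol and 11.4, 11.8, 10.3 and 8.23 FPKM after risperidone, a difference of 0.85 (SE 0.11, adjusted p = 0.242, limma). Nr4a1, an orphan nuclear receptor, read 12.6, 11.7, 12.3 and 13.5 FPKM against 7.65, 6.60, 6.21 and 5.55 FPKM, 1.93-fold in the mean (difference 0.86, SE 0.09, adjusted p = 0.147, limma). For Junb and Nr4a1 too, every haloperidol value exceeded every risperidone value. Fosl2 was separated by less but with a narrow spread, at 6.49, 7.08, 6.73 and 7.13 FPKM against 5.17, 4.70, 4.76 and 4.72 FPKM (difference 0.43, SE 0.04, adjusted p = 0.110, limma). Jun, Jund, Egr1, Egr2, Egr3, Egr4, Nr4a2 and Npas4 also had no overlap, with differences from 0.07 for Jund to 0.55 for Egr2. Klf2, Klf10, Maff, Srf, Arid5a, Fosl1 and Cyr61 were the 7 members whose mean was not higher after haloperidol.

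The early genes that act at synapses and on signalling showed the same order. Arc, which encodes a synaptic protein that removes glutamate receptors from the membrane and lies at chr15:74669083-74672570 on the minus strand of GRCm38, had the widest difference of the list. In the NAc it read 26.6, 23.4, 24.2 and 28.2 FPKM after haloperidol, 13.4, 10.6, 10.5 and 9.39 FPKM after risperidone and 6.44 to 7.50 FPKM after saline. The 3 groups did not overlap, with risperidone between saline and haloperidol. The difference between the drugs was 1.16 (SE 0.11, 95% confidence interval 0.89 to 1.42), 2.33-fold in mean FPKM, and its adjusted p in the NAc was 0.136 (limma). Leaving out NAc risperidone 1, the highest of its group, widened the difference to 1.25 and gave an adjusted p of 0.0295 (limma). Arc missed the threshold without any other single NAc library. It also missed it with the replicate number as a block, where the lowest adjusted p of all genes was 0.199 (limma). Dusp1, a phosphatase that switches off MAP kinases, read 7.62, 7.51, 7.62 and 8.43 FPKM against 4.67, 5.19, 4.92 and 5.32 FPKM, a difference of 0.55 (SE 0.05, adjusted p = 0.110, limma). Dusp6, the phosphatase of the kinase ERK in the cytoplasm, read 6.76, 6.81, 7.50 and 8.23 FPKM against 4.67, 5.01, 4.58 and 4.68 FPKM, where saline stood at 3.68 to 5.61 FPKM. Risperidone libraries thus lay within the range of saline for Dusp6, and haloperidol libraries above it. Btg2, an antiproliferative gene, read 3.00, 2.98, 3.40 and 3.12 FPKM after haloperidol, 1.92, 1.35, 1.5 and 1.66 FPKM after risperidone and 1.61 to 2.03 FPKM after saline, so that risperidone overlapped saline and haloperidol lay above both. Ier3, a stress-responsive survival gene, read 2.97, 2.76, 2.67 and 4.73 FPKM against 1.54, 1.23, 1.47 and 1.62 FPKM, 2.24-fold in the mean. Homer1 as a whole gene, a scaffold of metabotropic glutamate receptors, differed by 0.30 (SE 0.07). Summed over the 50 genes, the early-gene level in the NAc was 402 to 450 FPKM after haloperidol, 299.9 to 339 FPKM after risperidone and 257 to 273 FPKM after saline.

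Markers of cortical neurons also had higher means after haloperidol in the NAc libraries. Of the 14 cortical projection neuron markers, 11 had a higher mean after haloperidol in the NAc, 5 at an unadjusted p under 0.05 where 2.93% of all genes were, with a median difference of 0.14. Neurod2, a transcription factor of cortical excitatory neurons, read 3.85, 4.08, 3.63 and 3.55 FPKM after haloperidol and 2.04, 2.30, 2.99 and 3.46 FPKM after risperidone, without overlap. Slc17a7, the vesicular glutamate transporter of cortical neurons, read 61.8, 50.6, 45.7 and 64.8 FPKM against 31.0, 29.3, 42.2 and 48.9 FPKM, with overlap, and 38.3 to 53.6 FPKM after saline. The 14 markers summed to 128 to 165 FPKM after haloperidol, 111 to 155 FPKM after risperidone and 117 to 146 FPKM after saline, and none was at 0. Their part in the early-gene difference was not tested. In bulk tissue, more cells of a type and more RNA per cell cannot be told apart.

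Of the early genes whose NAc libraries did not overlap, 5 held a cyclic AMP response element (Dusp1, Btg2 and Plk2) or a CArG box (Egr2 and Dusp5) in their promoter window. The windows of 2 genes for each element are shown, since such elements can carry cyclic AMP and growth-factor signals to early genes. Their part in the drug difference was not tested. The windows run from 250 bases before to 50 after a transcription start, from RefSeq on GRCm38.p6, read in the direction of the gene. Capitals mark TGACGTCA, the cyclic AMP response element, in Dusp1 (chr17:26508423-26508722, minus strand) and Btg2 (chr1:134079106-134079405, minus strand), and the CArG box, the site of serum response factor, in Egr2 (chr10:67537619-67537918, plus strand) and Dusp5 (chr19:53528895-53529194, plus strand, 2 boxes side by side).
Dusp1: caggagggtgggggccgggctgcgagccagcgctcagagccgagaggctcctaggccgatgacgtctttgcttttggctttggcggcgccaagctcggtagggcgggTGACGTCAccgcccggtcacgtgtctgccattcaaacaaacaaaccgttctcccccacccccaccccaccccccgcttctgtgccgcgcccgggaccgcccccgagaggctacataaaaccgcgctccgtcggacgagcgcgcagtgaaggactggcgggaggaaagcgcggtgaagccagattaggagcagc
Btg2: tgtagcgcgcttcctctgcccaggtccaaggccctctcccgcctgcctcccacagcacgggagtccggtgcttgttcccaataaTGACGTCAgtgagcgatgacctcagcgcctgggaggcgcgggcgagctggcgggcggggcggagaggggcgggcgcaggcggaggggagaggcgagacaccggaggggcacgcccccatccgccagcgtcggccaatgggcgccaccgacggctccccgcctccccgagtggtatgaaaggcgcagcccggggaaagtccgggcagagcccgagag
Egr2: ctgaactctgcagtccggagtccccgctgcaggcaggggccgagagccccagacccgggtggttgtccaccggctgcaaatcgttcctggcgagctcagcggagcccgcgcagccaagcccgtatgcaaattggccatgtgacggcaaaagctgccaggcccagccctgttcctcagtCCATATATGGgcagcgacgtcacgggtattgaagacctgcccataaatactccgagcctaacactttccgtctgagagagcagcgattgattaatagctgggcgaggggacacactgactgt
Dusp5: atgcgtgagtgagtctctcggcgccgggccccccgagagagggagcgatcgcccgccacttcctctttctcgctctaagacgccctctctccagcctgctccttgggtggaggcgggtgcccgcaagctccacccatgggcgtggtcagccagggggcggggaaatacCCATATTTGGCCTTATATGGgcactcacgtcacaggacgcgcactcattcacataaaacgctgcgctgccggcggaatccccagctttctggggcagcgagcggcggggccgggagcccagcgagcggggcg
Of the 50 early genes, 36 had a window in the table, and 20 of the 26 that did not overlap in the NAc. TGACGTCA, searched on both strands, was in 4 of the 36 genes (11.1%) and 3 of the 20 (15%), against 2.03% of all 27025 genes with a window. The CArG box was in 3 of the 36 (8.33%) and 2 of the 20 (10%), against 1.81% of all genes. AGAACA, the short form of the glucocorticoid response element, was in 4 of the 36 (11.1%) and 21.3% of all genes. A match describes the letters of this window and not a site in use.

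In the PFCx, 43 of the 50 early genes overlapped between the drugs. Both drugs stood above saline there, with sums over the 50 genes of 332 to 377 FPKM after haloperidol, 335 to 361 FPKM after risperidone and 254 to 293 FPKM after saline. Of the 50 genes, 22 had a higher mean after haloperidol and 28 after risperidone, with a median difference of -0.02 where all genes had -0.0032. Arc read 16.8, 14.3, 13.1 and 15.6 FPKM after haloperidol and 14.7, 13.2, 11.6 and 13.9 FPKM after risperidone in the PFCx. These values overlapped, and their difference was 0.15 (95% confidence interval -0.07 to 0.37). Fos, at 11.6, 8.22, 8.42 and 8.93 FPKM against 8.87, 10.6, 8.68 and 6.48 FPKM, and Nr4a1, at 8.67, 7.39, 6.15 and 7.87 FPKM against 7.56, 7.83, 6.95 and 7.28 FPKM, overlapped as well. Their differences of 0.10 and 0.01 turned sign without PFCx haloperidol 4 and risperidone 4, to -0.0071 and -0.017.

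A few early genes did separate in the PFCx, in both directions. All 4 haloperidol libraries lay above for 3 genes, Klf6, Bdnf and Egr3, against 1.45% of all genes, and all 4 risperidone libraries lay above for 4 genes, Tiparp, Dusp5, Sik1 and Csrnp1, against 1.72%. At an unadjusted p under 0.05, 7 of the 50 were higher after risperidone and 4 after haloperidol, where 2.8% and 2.32% of all genes were. Tiparp, an ADP-ribosyltransferase induced by the aryl hydrocarbon receptor, read 2.79, 2.11, 2.81 and 2.08 FPKM after haloperidol and 3.31, 3.79, 4.80 and 4.03 FPKM after risperidone in the PFCx. It was 1.63-fold higher in the mean after risperidone (adjusted p = 0.882, limma), and in the NAc its groups overlapped. Bdnf, a neurotrophin, read 5.51, 5.22, 4.71 and 5.0 FPKM after haloperidol and 3.92, 4.71, 4.25 and 4.21 FPKM after risperidone, with haloperidol 3 and risperidone 2 nearly equal. Klf6, a transcription factor of the Krüppel-like family, read 5.35, 5.55, 6.57 and 5.91 FPKM against 4.57, 4.67, 4.80 and 4.76 FPKM, and saline libraries stood above both drugs at 7.23 to 7.94 FPKM. Of the 37352 genes tested in the PFCx, 0 passed at an adjusted p under 0.05 (0%, limma, lowest 0.427), while 1915 (5.13%) had an unadjusted p under 0.05.

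**Figure D2:**
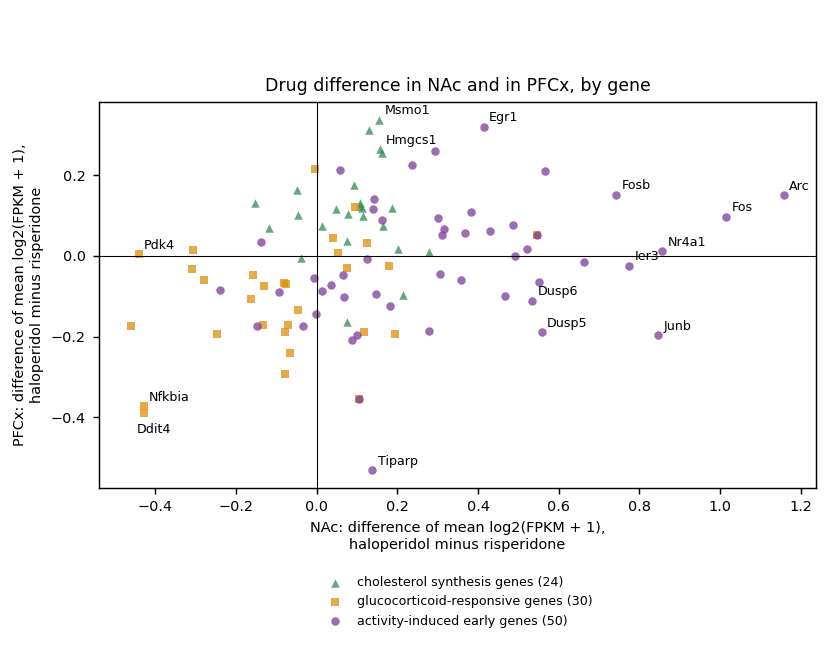
Difference between the drugs in the NAc (horizontal axis) and in the PFCx (vertical axis) for each gene of 3 lists, as mean log2(FPKM + 1) after haloperidol minus risperidone. Early genes (circles) extend to 1.16 in the NAc and stay between -0.53 and 0.32 in the PFCx, glucocorticoid-responsive genes (squares) lie mostly below 0 on both axes, and cholesterol synthesis genes (triangles) mostly above 0 on both.

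The difference between the tissues was tested directly, as the drug difference in the NAc minus that in the PFCx. It was 1.04 for Junb (SE 0.16), 1.01 for Arc (SE 0.15), 0.84 for Nr4a1 (SE 0.13) and 0.65 for Dusp6 (SE 0.10), each with an adjusted p of 0.123 (limma). Of the 50 early genes, 46 had a larger drug difference in the NAc, 26 of them at an unadjusted p under 0.05 where 2.62% of all genes were, against 0 with a smaller one, where 1.95% were, and 0 passed after adjustment. Over all genes, 0 of 37352 (0%) passed this test, with a lowest adjusted p of 0.0727 (limma), and 1705 (4.56%) had an unadjusted p under 0.05. Of the libraries left out 1 at a time, only NAc risperidone 1, the highest of its group for Arc, let Arc pass, at an adjusted p of 0.0381 (limma). Dusp5, the phosphatase of ERK in the nucleus, did not overlap in either tissue and took opposite directions. In the NAc it read 3.30, 2.41, 2.76 and 2.94 FPKM after haloperidol and 1.21, 1.46, 1.90 and 1.94 FPKM after risperidone. In the PFCx it read 1.53, 1.67, 1.62 and 1.37 FPKM after haloperidol and 1.79, 1.95, 1.74 and 2.15 FPKM after risperidone. The NAc difference exceeded the PFCx difference by 0.75 (SE 0.13, adjusted p = 0.232, limma). Sik1, a kinase that restrains cyclic AMP signalling to the nucleus, had the same arrangement, with differences of 0.28 in NAc and -0.19 in PFCx (adjusted p of their difference 0.596, limma).

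Across both tissues, with tissue as a factor, 4 of 37352 genes passed (0.0107%, limma), 2 higher after each drug (0.00535% each), and 2445 (6.55%) had an unadjusted p under 0.05. Of the 50 early genes, 27 were higher after haloperidol at that level and 2 after risperidone, where 3.4% and 3.15% of all genes were. Arc was higher after haloperidol by 0.65 (SE 0.07, 95% confidence interval 0.50 to 0.81, adjusted p = 0.0120, limma; two-sided exact permutation p = 0.00327). Its difference within each tissue was 1.16 in NAc and 0.15 in PFCx. Ttc39b, a tetratricopeptide repeat gene at chr4:83220300-83324255 on the minus strand, was higher by 0.31 (SE 0.04, adjusted p = 0.0474, limma). It read 7.95, 6.4, 7.55 and 7.47 FPKM after haloperidol and 5.66, 6.41, 6.31 and 5.94 FPKM after risperidone in the NAc, and 10.9, 11.8, 12.4 and 11.9 FPKM against 8.97, 8.47, 8.68 and 9.05 FPKM in the PFCx. Haloperidol libraries lay above all risperidone libraries in the PFCx, while NAc haloperidol 2 fell level with the highest risperidone libraries. Saline was at 10.6 to 12.1 FPKM in the PFCx, so the haloperidol libraries lay near saline and the risperidone libraries below it. Higher after risperidone were Gm7467, an antisense transcript (difference -0.26, SE 0.04, adjusted p = 0.0401, limma), and Gm26080, a small nucleolar RNA. Both were at low levels. Gm7467 read 0.145 to 0.172 FPKM after haloperidol and 0.361 to 0.446 FPKM after risperidone in the NAc, from at most 769 aligned bases in a library. Gm26080 was listed at 0 in all 8 NAc libraries, and its difference came from the PFCx, with 0, 0, 0.0963 and 0.0325 FPKM after haloperidol and 0.417, 0.403, 0.377 and 0.353 FPKM after risperidone, from at most 89.0 aligned bases in a library. It passed the filter on low values only through those risperidone libraries, so it had to differ, and nothing is read from its call. With the replicate number as a block, 0 of the 4 passed, and Arc had an adjusted p of 0.0865. Arc also missed the threshold without NAc haloperidol 1 (0.0533), NAc risperidone 3 (0.0534) or PFCx haloperidol 4 (0.0563), and without both PFCx number 4 libraries (0.120). Ttc39b, Gm7467 and Gm26080 missed it when any 1 NAc library was left out, apart from Ttc39b without haloperidol 2, at adjusted p-values of 0.0731 to 0.144. They also missed it without PFCx haloperidol 4, risperidone 1, risperidone 3 or risperidone 4 (0.0616 to 0.123), and Ttc39b without PFCx haloperidol 2, haloperidol 3 or risperidone 2 as well (0.0743 to 0.0868). With all 16 libraries, Ttc39b also missed it with a pseudocount of 0.1 (0.207), at a mean FPKM of at least 1 (0.0761), with a limma trend (0.0776), after rescaling to a common upper quartile (0.117) and with tissues of the same number as a block (0.0571).

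When saline set I and methamphetamine libraries also entered the fit to estimate the spread, 25 genes passed across tissues, 17 higher after haloperidol and 8 after risperidone. Those higher after haloperidol included Arc, Fos, Fosb, Fosl2, Jun, Egr1 and Nr4a1 of the early list, and in the NAc alone Arc (adjusted p = 0.00541), Nr4a1 (0.0158) and Fosl2 (0.0414) passed by limma. The differences themselves did not move, since only the estimate of the spread changed. Of the genes that passed with the 16 libraries alone, Gm7467 (0.257) and Gm26080 (0.0881) across tissues and Gm26189 (0.424) and Ifi27l2a (0.945) in the NAc missed the threshold in this fit. Inhba, which encodes the subunit of activin A and passed in that fit (adjusted p = 0.00229), separated the drugs in both tissues. It read 6.65, 4.55, 5.50 and 7.83 FPKM after haloperidol and 3.41, 2.69, 1.83 and 3.14 FPKM after risperidone in the NAc. In the PFCx it read 2.2, 1.82, 1.85 and 2.67 FPKM against 1.29, 1.36, 1.36 and 1.27 FPKM. No haloperidol library fell to the level of a risperidone library in either tissue, and with only the 16 libraries in the fit the difference across tissues was 0.67 (SE 0.10, adjusted p = 0.0712, limma). Clk1, a kinase of splicing factors, was also apart in both tissues, at 24.5, 26.6, 24.9 and 28.3 FPKM against 20.4, 17.4, 20.8 and 18.3 FPKM in NAc and at 20.6, 19.9, 21.4 and 20 FPKM against 18.2, 13.1, 17.7 and 16 FPKM in the PFCx. Saline stood at 25.5 to 28.8 FPKM in the NAc, near the haloperidol libraries, and the difference across tissues was 0.37 (SE 0.06, adjusted p = 0.0812, limma). The noncoding RNA Gm26835 behaved alike, with no overlap in either tissue and a difference across tissues of 0.32 (SE 0.05, adjusted p = 0.0812, limma). Inhba, Clk1 and Gm26835 were named for low p-values, so being apart in both tissues only describes them. All 4 haloperidol libraries lay above for 1.42% of all genes in NAc and 1.45% in PFCx, and the share for both tissues is not given here.

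In the NAc by itself, 2 of 37352 genes passed (0.00535%, limma), both at very low levels and both higher after haloperidol, and 2045 (5.47%) had an unadjusted p under 0.05. Gm26189, a small nuclear RNA at chr9:13275516-13275622, read 0.441, 0.503, 0.523 and 0.463 FPKM after haloperidol and was listed at 0 in all 4 risperidone libraries (adjusted p = 0.00073). Ifi27l2a, an interferon-inducible gene, read 0.102, 0.116, 0.121 and 0.107 FPKM after haloperidol and was listed at 0 after risperidone (adjusted p = 0.00422). The haloperidol values rested on 83.0 to 238 aligned bases of Gm26189 and 96.0 to 109 of Ifi27l2a in a library, and of the saline libraries 1 and 2, respectively, were above 0. With the replicate number as a block, 0 genes passed in the NAc. In the PFCx, where both genes were detected after both drugs, their groups overlapped.

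Nt5e and Pde9a were apart with risperidone above in both tissues, although neither passed with the 16 libraries in the fit. All 4 risperidone libraries lay above for 1.16% of all genes in NAc and 1.72% in PFCx. The share of all genes apart in both tissues is not given here. The genes of this paragraph were named for low p-values, so being apart in both tissues only describes them. Nt5e, the ecto-nucleotidase that forms extracellular adenosine, read 2.92, 3.08, 3.18 and 2.54 FPKM after haloperidol and 3.92, 4.51, 4.29 and 3.75 FPKM after risperidone in the NAc. In the PFCx it read 1.01, 1.13, 1.09 and 1.18 FPKM against 1.40, 1.62, 1.90 and 1.3 FPKM. Every risperidone library lay above every haloperidol library in both tissues, by 1.41-fold in the mean of each, and saline overlapped haloperidol in both. The difference across tissues was -0.33 (SE 0.05, adjusted p = 0.0812, limma). Pde9a, a phosphodiesterase of cyclic GMP, read 4.33, 5.23, 5.60 and 6.17 FPKM after haloperidol and 9.31, 7.37, 8.72 and 8.81 FPKM after risperidone in the NAc, where saline ranged from 5.82 to 9.87 FPKM. In the PFCx it read 2.67, 3.61, 3.00 and 3.93 FPKM against 4.54, 4.11, 4.35 and 6.35 FPKM, again without overlap (across tissues -0.52, SE 0.09, adjusted p = 0.0870, limma). The genes 4932418E24Rik (-0.36, SE 0.06, adjusted p = 0.102), 4933407L21Rik (-0.29, SE 0.06, adjusted p = 0.163) and Ccbe1 (-0.22, SE 0.04, adjusted p = 0.102), the last a secreted factor of lymphatic growth, were also apart in both tissues (limma). Gm43376, an antisense transcript, was also among the risperidone-side genes of lowest p across tissues and did not pass. The gene 4933407L21Rik was named for its low p in the NAc. In the NAc, the lowest p-values on the risperidone side besides 4933407L21Rik were those of Rasd2, a small GTPase of striatal neurons, Lrtm1, Syndig1 and Lingo3. Rasd2 read 32.4, 34.9, 34.0 and 32.9 FPKM after haloperidol and 39.3, 38.6, 40.6 and 40.7 FPKM after risperidone, a difference of -0.24 (SE 0.03, adjusted p = 0.179, limma). The other 3 had differences of -0.18 to -0.28 and adjusted p-values of 0.188 to 0.242.

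**Figure D3:**
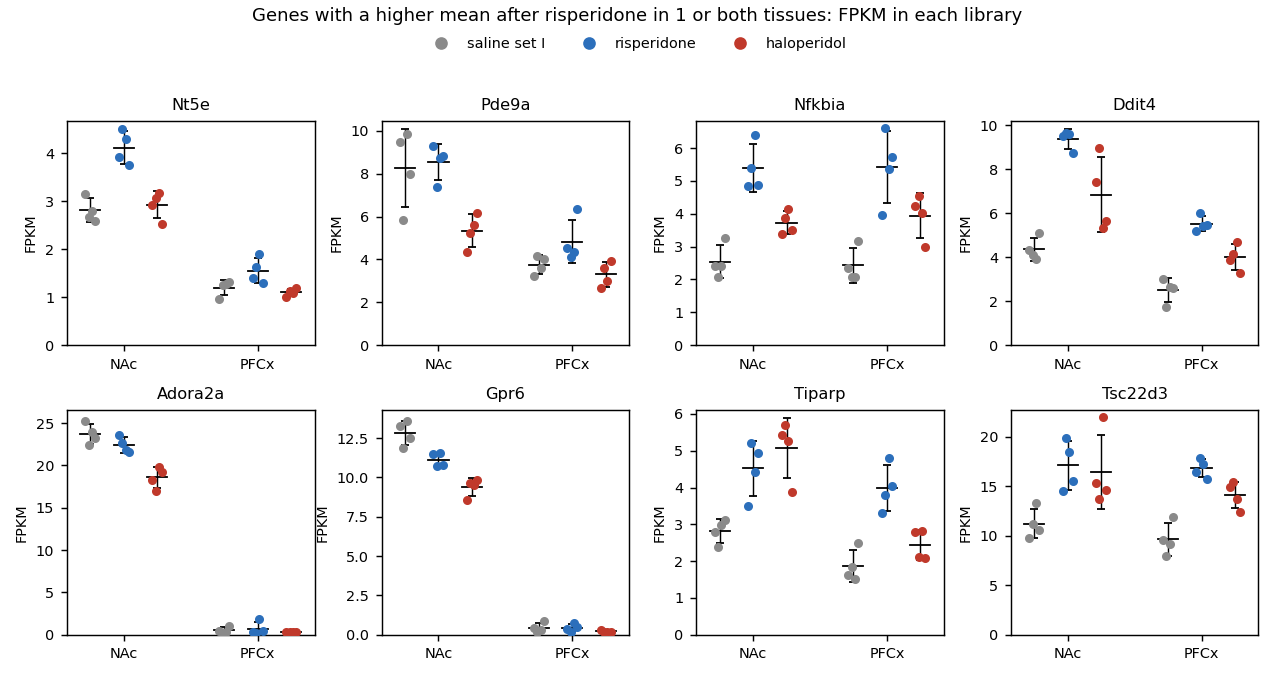
FPKM of 8 genes with a higher mean after risperidone in 1 or both tissues, in each library of saline set I (grey), risperidone (blue) and haloperidol (red). Points are libraries, black lines are means of 4 and bars are SD. Nt5e and Pde9a separate the drugs in both tissues, Nfkbia, Adora2a and Gpr6 in the NAc, and Ddit4, Tiparp and Tsc22d3 in the PFCx.

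In the PFCx, the genes of lowest p were a mixed group. On the haloperidol side they were Taf12, a subunit of the general transcription factor TFIID, with Gm10309, Ttc39b, Lsp1 and Gm14636. On the risperidone side they were Hist1h3f, a gene of histone H3, with Gm42814, Gm6644, Kdm6b and Tiparp. Taf12 read 3.30, 3.31, 2.98 and 3.06 FPKM after haloperidol and 1.96, 1.84, 2.07 and 1.59 FPKM after risperidone (difference 0.54, SE 0.07, adjusted p = 0.427, limma). The groups were far apart in the PFCx, while in the NAc they overlapped with the opposite sign. Kdm6b, a histone demethylase, read 0.836, 0.943, 0.680 and 0.873 FPKM against 1.52, 1.38, 1.41 and 1.16 FPKM, and saline libraries stood at 0.5 to 0.836 FPKM. Risperidone libraries of Kdm6b lay above both the haloperidol and the saline libraries. All 10 of these genes had adjusted p-values of 0.427 to 0.882.

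Glucocorticoid-responsive genes had somewhat higher means after risperidone. Of 30 genes, 20 had a higher mean after risperidone in NAc and 22 in PFCx, with median differences of -0.08 and -0.07. At an unadjusted p under 0.05, 7 were higher after risperidone and 1 after haloperidol in the NAc, where 2.55% and 2.93% of all genes were, and in the PFCx these counts were 6 and 0, where 2.8% and 2.32% of all genes were. None passed after adjustment. Leaving out 1 library at a time left 18 to 20 genes higher after risperidone in NAc and 20 to 25 in PFCx. Nfkbia, the inhibitor of NF-kappaB, read 3.38, 3.86, 4.15 and 3.52 FPKM after haloperidol and 4.85, 5.40, 6.41 and 4.86 FPKM after risperidone in the NAc, without overlap, and saline at 2.07 to 3.27 FPKM lay below both. Its difference was -0.43 (SE 0.09, adjusted p = 0.588, limma), and the groups overlapped in the PFCx through risperidone 1. Ddit4, an inhibitor of the growth kinase mTOR, read 3.89, 4.16, 4.69 and 3.27 FPKM against 5.20, 6.01, 5.42 and 5.45 FPKM in the PFCx, without overlap (-0.39, SE 0.09, adjusted p = 0.882, limma). In the NAc it overlapped through haloperidol 2, at 7.43, 8.97, 5.34 and 5.64 FPKM against 9.51, 9.67, 9.60 and 8.73 FPKM. Pdk4, a kinase that closes the entry of pyruvate into mitochondrial oxidation, was apart in the NAc only, at 1.07, 1.40, 0.908 and 0.790 FPKM against 1.80, 1.92, 1.67 and 1.65 FPKM, and its drug difference in the NAc lay 0.45 below that in the PFCx (adjusted p = 0.959, limma). The 1 member higher after haloperidol at an unadjusted p under 0.05 was Dusp1, which is also an early gene.

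Sgk1, Fkbp5 and Cdkn1a, well known glucocorticoid targets, overlapped between the drugs in both tissues, whereas Tsc22d3 did not overlap in the PFCx. Sgk1, a kinase of ion transport, read 36.6, 36.9, 37.6 and 24.5 FPKM after haloperidol and 36.6, 53.7, 43.9 and 34.6 FPKM after risperidone in the NAc, with saline at 16.1 to 21.6 FPKM. Both drugs lay above saline, and the difference between them was -0.31 (95% confidence interval -0.77 to 0.15). Fkbp5, a co-chaperone of the glucocorticoid receptor, differed by -0.13 (-0.29 to 0.02) in NAc and -0.17 (-0.46 to 0.12) in the PFCx, and Cdkn1a, an inhibitor of the cell cycle, by 0.09 (-0.23 to 0.42) and 0.12 (-0.19 to 0.43). Per1, a clock gene that both signals induce, differed by 0.11 (-0.20 to 0.41) in NAc and -0.35 (-0.67 to -0.04) in the PFCx, where risperidone 3, at 7.92 FPKM, lay within the haloperidol libraries. Tsc22d3, a glucocorticoid-induced leucine zipper, was apart in the PFCx at 15, 15.4, 13.7 and 12.4 FPKM against 16.5, 17.8, 17.3 and 15.7 FPKM. Of the 26 glucocorticoid-responsive genes with a promoter window, 1, Sgk1, held the full palindromic glucocorticoid response element, against 0.0111% of all genes. AGAACA was in 5 of the 26 (19.2%), against 21.3% of all genes. TGACGTCA was in 2 of the 26 (7.69%), Errfi1 and Dusp1, against 2.03% of all genes.

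**Figure D4:**
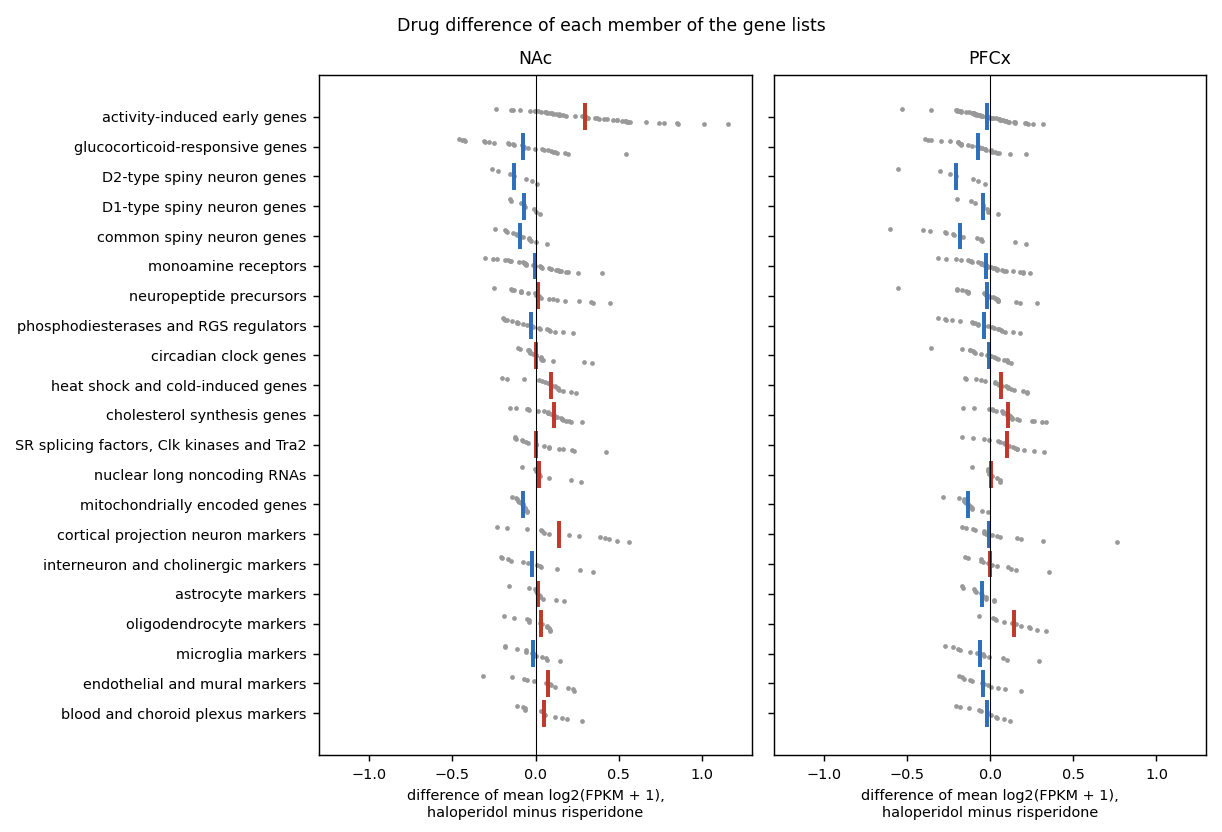
Difference between the drugs for every tested member of 21 gene lists (grey points), as mean log2(FPKM + 1) after haloperidol minus risperidone, in the NAc (left) and the PFCx (right). Coloured bars are list medians, red above 0 and blue below 0. The early genes have the highest median in the NAc, 0.30, and a median of -0.02 in the PFCx.

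Genes of the D2-type spiny neurons, the cells that carry the common receptor target of both drugs, had slightly lower means after haloperidol. In the NAc, 6 of the 7 tested had a higher mean after risperidone, with a median difference of -0.13. Adora2a, an adenosine receptor of these neurons, read 18.3, 17.0, 19.8 and 19.2 FPKM after haloperidol and 23.7, 22.6, 21.8 and 21.6 FPKM after risperidone, with saline at 22.4 to 25.3 FPKM. Haloperidol libraries lay below those of both other groups (-0.26, SE 0.05, adjusted p = 0.539, limma). Gpr6, a receptor that raises cyclic AMP in these neurons, was likewise apart, at 8.57, 9.61, 9.52 and 9.85 FPKM against 11.5, 10.7, 11.6 and 10.8 FPKM, and saline stood higher still at 11.9 to 13.6 FPKM. Drd2 itself overlapped, at 11.9, 12.2, 15.1 and 13.5 FPKM against 14.4, 15.9, 13.8 and 14.9 FPKM (-0.16, 95% confidence interval -0.35 to 0.03), as did Penk, the enkephalin precursor (-0.13, -0.35 to 0.09). The D1-type receptor gene Drd1 differed by -0.01 (-0.18 to 0.16), and the D1-type list had a median of -0.07. In the PFCx all 7 D2-type genes had a higher mean after risperidone with a median of -0.21, but without risperidone 3, the library with the high spiny neuron genes, the median was -0.08. For the 15 genes common to spiny neurons, 13 had a higher mean after risperidone in each tissue, and the PFCx median moved from -0.18 to -0.05 without that library.

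Monoamine receptor genes differed in both directions, and none passed. Of 33 tested, 4 were higher after haloperidol and 4 after risperidone across tissues at an unadjusted p under 0.05, where 3.4% and 3.15% of all genes were, and the median difference was -0.01 in NAc and -0.02 in PFCx. Htr2a, the serotonin 2A receptor, read 5.04, 4.36, 4.89 and 5.21 FPKM after haloperidol and 4.20, 4.25, 4.09 and 3.96 FPKM after risperidone in the NAc, apart by a narrow margin (0.20, SE 0.05, adjusted p = 0.675, limma). Htr2c differed by -0.08 (95% confidence interval -0.26 to 0.10). In the PFCx, Hrh1, the histamine H1 receptor, read 3.74, 4.68, 4.37 and 3.84 FPKM against 5.84, 5.42, 5.06 and 5.25 FPKM, and Adra2c, an alpha-2 adrenergic receptor, 1.31, 1.3, 1.41 and 1.12 FPKM against 1.61, 1.90, 1.99 and 1.49 FPKM. Both were above in all 4 risperidone libraries, whereas Htr1a, the serotonin 1A receptor, was above in all 4 haloperidol libraries of the PFCx by 1.23-fold in the mean. Nts, the precursor of neurotensin, a peptide linked to antipsychotic action in the NAc, read 4.74, 6.22, 7.04 and 5.93 FPKM after haloperidol and 4.86, 4.25, 5.77 and 3.40 FPKM after risperidone, with overlap (0.33, 95% confidence interval -0.05 to 0.71).

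Genes of cholesterol synthesis had slightly higher means after haloperidol. Of the 24 tested, 19 had a higher mean after haloperidol in NAc and 21 in PFCx, with a median difference of 0.11 in each, and leaving out each library in turn gave 18 to 21 and 19 to 21 genes. In the PFCx the summed level was 216 to 227 FPKM after haloperidol, 187 to 207 FPKM after risperidone and 197 to 211 FPKM after saline, while in the NAc the sums overlapped. Msmo1, a sterol oxidase, read 22.2, 19.5, 19.6 and 22.3 FPKM against 14.7, 16.5, 17.5 and 16.7 FPKM in the PFCx, and Hmgcs1, the synthase at the head of the pathway, 33.2, 33.5, 33.3 and 32.2 FPKM against 25.4, 30.6, 27.8 and 25.8 FPKM. None of the 24 passed (lowest adjusted p of the list 0.882 in the PFCx and 0.345 across tissues, limma), and 7 of the 24 had an unadjusted p under 0.05 across tissues, where 3.4% of all genes were higher after haloperidol. Oligodendrocytes make much of the sterol of the brain, and of their 12 markers 11 had a higher mean after haloperidol in the PFCx, with sums of 162 to 223 FPKM after haloperidol and 126 to 210 FPKM after risperidone. In the NAc 7 of the 12 markers had a higher mean after haloperidol, with a median difference of 0.03, against 0.14 in the PFCx. Their part in the cholesterol difference was not tested. Mitochondrially encoded genes went the other way, with all 13 higher in the mean after risperidone in each tissue (medians -0.08 and -0.14), 0 of them at an unadjusted p under 0.05.

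At the level of transcripts, 4 of 87036 passed in the NAc (0.0046%), 1 in the PFCx, 1 across tissues and 1 for the difference between tissues (0.00115% each, limma). At an unadjusted p under 0.05 the shares were 5.21% in the NAc, 5.08% in the PFCx, 5.64% across tissues and 4.58% for the difference. Apart from Gm26189, all of them were isoforms of genes whose sum did not pass. Hvcn1, a proton channel, exchanged its isoforms in the NAc. ENSMUST00000072602 read 1.34, 1.32, 0.999 and 1.47 FPKM after haloperidol and at most 0.00406 FPKM after risperidone (adjusted p = 0.0148), while ENSMUST00000100747 read at most 0.00601 FPKM after haloperidol and 1.24, 1.43, 1.43 and 1.68 FPKM after risperidone (adjusted p = 0.00357). Each isoform was thus near 0 in 1 group, but the sum over the gene differed by -0.10 (SE 0.08, adjusted p = 0.964, limma). In saline NAc libraries either isoform could be the one near 0, and in the PFCx both overlapped between the drugs. Of Ccdc85a, a coiled-coil gene, 1 isoform was near 0 after haloperidol in the PFCx. Its transcript ENSMUST00000093253 (chr11:28385685-28584296, minus strand) read at most 0.00863 FPKM after haloperidol and 1.55, 1.68, 1.68 and 1.63 FPKM after risperidone (adjusted p = 0.000798 in the PFCx, 1.05e-05 across tissues). ENSMUST00000042534, which shares most of its span, read 2.31, 2.32, 2.58 and 2.43 FPKM after haloperidol and 0.999, 0.0721, 1.56 and 0.000933 FPKM after risperidone, near 0 in only 2 of the 4. The gene sum differed by -0.02 (SE 0.09), and in saline PFCx libraries ENSMUST00000093253 read 2.28, 0.00092, 0.0516 and 0.00108 FPKM, high in 1 and near 0 in 3. The fourth NAc call was ENSMUST00000138865 of Slc25a22, a mitochondrial glutamate carrier, at 0.184, 0.162, 0.179 and 0.162 FPKM after risperidone and at most 3.59e-52 FPKM after haloperidol (adjusted p = 0.0196). Isoforms of 1 gene share reads, which Cufflinks divided among them in each library, and the part of that division in these differences was not tested. With the replicate number as a block, 0 transcripts passed in NAc and 0 in PFCx. When saline set I and methamphetamine libraries entered the fit, none of these isoforms passed (adjusted p-values of 0.101 to 0.988).

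**Figure D5:**
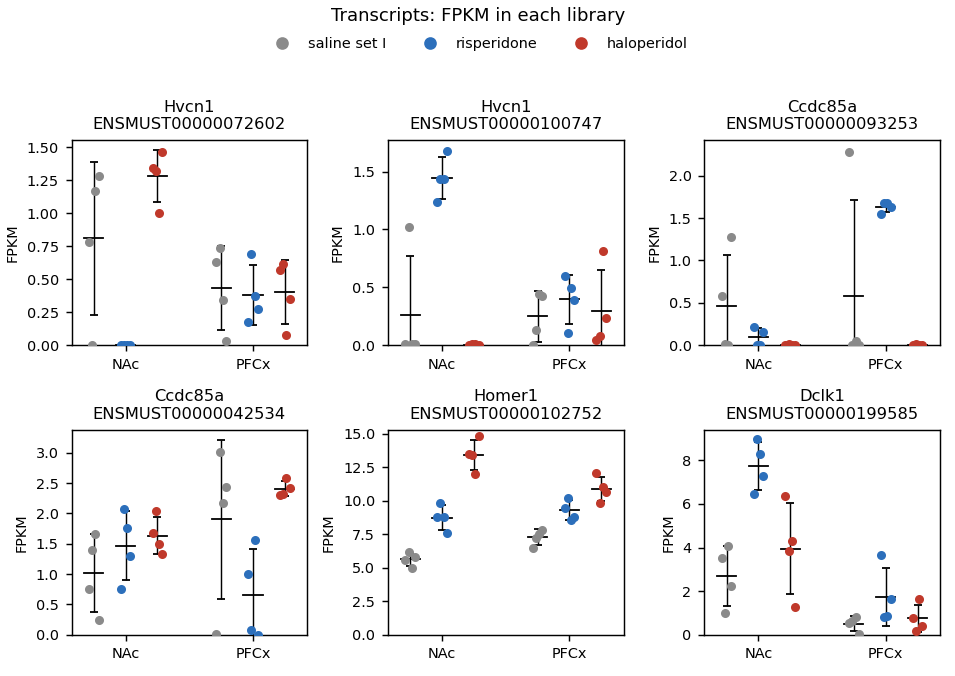
FPKM of 6 transcripts in each library of saline set I (grey), risperidone (blue) and haloperidol (red) in the NAc and the PFCx. Points are libraries, black lines are means of 4 and bars are SD. The Hvcn1 isoforms are near 0 in opposite drug groups of the NAc, and Homer1 ENSMUST00000102752 stands at 12 to 14.8 after haloperidol and 7.57 to 9.82 after risperidone there.

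Isoforms of 1 early gene differed in how far they followed the gene in the NAc. A short isoform of Homer1, ENSMUST00000102752 (chr13:93304495-93360462, plus strand), read 13.5, 13.4, 12 and 14.8 FPKM after haloperidol, 8.81, 9.82, 8.83 and 7.57 FPKM after risperidone and 5.02 to 6.15 FPKM after saline. The 3 groups were apart in that order, and the difference between the drugs was 0.57 (SE 0.09, adjusted p = 0.379, limma), where the whole gene differed by 0.30. Of its other isoforms, ENSMUST00000079086 differed by 0.03 and ENSMUST00000109494 by -0.04, both with overlap, and ENSMUST00000109496, at no more than 0.439 FPKM in any of the 8 libraries, by -0.21 with the risperidone libraries above. Across tissues ENSMUST00000102752 differed by 0.39 (SE 0.06). There ENSMUST00000109498 differed by 0.80 (SE 0.42), ENSMUST00000109492 by 0.56 (SE 0.23), ENSMUST00000109493 by 0.10 and ENSMUST00000109497 by 0.09. ENSMUST00000080127 differed by 0.02 and ENSMUST00000109495 by -0.14, so ENSMUST00000102752 was not alone in standing higher after haloperidol. ENSMUST00000109492 and ENSMUST00000109493 are short as well, ending at position 93367134, whereas ENSMUST00000109498 and ENSMUST00000109497 end at 93402270. Arc ENSMUST00000110009 read 16, 11.8, 11.4 and 13.0 FPKM after haloperidol and 3.77, 1.40, 1.71 and 2.53 FPKM after risperidone in the NAc. That is 5.56-fold in the mean (difference 2.11, SE 0.23, adjusted p = 0.210, limma), but its sister isoform spans the same locus and shares its reads. Of Dclk1, a kinase of neuronal microtubules, ENSMUST00000199585 (chr3:55461728-55471318, plus strand) stood lower after haloperidol in the NAc, at 6.37, 3.84, 4.30 and 1.28 FPKM against 6.47, 8.95, 8.28 and 7.26 FPKM after risperidone and 1.00 to 4.07 FPKM after saline. Its groups were apart by a small margin, with haloperidol 1 close to risperidone 1 (difference -0.93, SE 0.35, adjusted p = 0.935, limma). Across tissues it differed by -0.77 (SE 0.25) and ENSMUST00000198757, an isoform with a retained intron, by -0.24 (SE 0.08). ENSMUST00000167204 went the other way, by 0.24 (SE 0.11). The adjusted p-values of these isoforms across tissues were 0.714 to 0.884 (limma). The whole Dclk1 gene overlapped between the drugs, with differences of 0.03 (95% confidence interval -0.16 to 0.23) in the NAc and 0.07 (-0.11 to 0.25) in the PFCx.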

How the data were processed

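Total RNA depleted of ribosomal RNA was sequenced on the Ion platform. The authors aligned reads to mm10 with TopHat2 2.0.1 and quantified transcripts with Cufflinks 2.2.1, and the deposited tables give FPKM per transcript. The coverage deposited beside it, a signal of reads per base, served only to estimate depth. FPKM were summed per gene symbol. Values were tested as log2(FPKM + 1) with limma 3.58.1 in R 4.3.3, over features whose FPKM averaged 0.1 or more over the 8 libraries of a tissue. Adjusted p-values are Benjamini-Hochberg over all features, with a threshold of 0.05, and fold changes on this scale understate those of low genes. Exact permutation tests used 70 splits within a tissue (smallest p 0.0286) and 4900 across tissues (smallest p 0.000408). The methods were tested on simulated data.

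Groups came from the treatment labels. The members and gene lists were chosen with earlier results of these data known. Named genes were those of lowest p in each direction with a mean FPKM of at least 1, called genes, the lowest p-values of each list and a fixed set of 20 genes. Other genes were named after their values were seen. Deviations of same-numbered NAc libraries from their group means correlated at 0.114 to 0.206 over genes, so the numbers may pair them. The reported tests did not use such a pairing, and it entered only in an alternative fit with the number as a block. This pairing comes from the data, since the labels give numbers only. Positions are from GENCODE on GRCm38. Alternatives were the pseudocount, filters, limma settings, rescaling, blocks, other libraries in the fit and each library left out. Saline set I and methamphetamine libraries entered 1 alternative fit and the other libraries of the series none. The 18 failed transcript values stayed in the reported fits and were left out only in an alternative.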

Additional observations from a re-analysis of the deposited data

Results flagged for a closer look

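In a group of 4, a library was singled out when its gap to the nearest other was too wide a share of the range of the group by Dixon's test at the 95% level. This held for 14 of 216 groups examined, and chance gives about 1 in 20. In the NAc, haloperidol 4 stood at 8.43 FPKM for Dusp1 (others 7.51 to 7.62), at 24.5 FPKM for Sgk1 (others 36.6 to 37.6) and at 2.79 FPKM for Gm6644 (others 1.68 to 1.77). Risperidone 4 stood at 3.11 FPKM for Fos (others 5.28 to 5.58), risperidone 1 at 5.17 FPKM for Fosl2 (others 4.70 to 4.76) and risperidone 3 at 1.38 FPKM for Gm42814 (others 1.15 to 1.18). In the PFCx, risperidone 3 stood at 22.3 FPKM for Penk (others 4.58 to 6.33), 1.81 FPKM for Adora2a (others 0.244 to 0.482) and 7.92 FPKM for Per1 (others 11.7 to 12.4). Its summed D2-type spiny neuron genes were at 28.4 FPKM (others 8.41 to 11.0), and its summed cortical projection neuron markers at 371 FPKM (others 391 to 393). PFCx haloperidol 4 stood at 4.07 FPKM for Htr2a (others 5.45 to 5.73). PFCx haloperidol 3 stood at 2.54 FPKM for Npas4 (others 3.04 to 3.13) and at 5518 FPKM for the summed mitochondrially encoded genes (others 4684 to 4756).

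The drug difference of Ccdc85a ENSMUST00000093253 differed between the tissues by 1.27 (adjusted p = 9.7e-05, limma), while the sum over its gene overlapped in both.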

How the results depend on the processing

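Genes passing in the NAc numbered 2, and 6 with a pseudocount of 0.1, 1 at a mean FPKM of at least 1, 0 with the replicate block and 4 to 11 without 1 library. In the PFCx 0 passed, 1 with saline set I and methamphetamine libraries in the fit and 0 to 1 without 1 library. Across tissues 4 passed, 8 with pseudocount 0.1, 1 at FPKM of at least 1, 2 with a limma trend, 0 with the replicate block, 25 with the added libraries, 0 without both PFCx number 4 libraries and 0 to 6 without 1 library. For the difference between tissues 0 passed, 6 with pseudocount 0.1, 1 without the filter, 1 with the trend, 2 by the ordinary linear model and 0 to 2 without 1 library. Transcripts in the NAc numbered 4, and 28 with pseudocount 0.1, 7 without the filter, 0 at FPKM of at least 1, 7 with the trend, 8 by the ordinary model, 0 with the block, 2 with the added libraries and 4 to 19 without 1 library. In the PFCx 1 passed, 11 with pseudocount 0.1, 0 at FPKM of at least 1, 0 with the block, 3 after rescaling, 2 with the added libraries, 0 without both number 4 libraries and 1 to 3 without 1 library. Across tissues 1 passed, 10 with pseudocount 0.1, 4 without the filter, 0 at FPKM of at least 1, 3 with the trend, 5 by the ordinary model, 11 with the added libraries, 2 without both number 4 libraries and 1 to 7 without 1 library. For the difference 1 passed, 12 with pseudocount 0.1, 4 without the filter, 0 at FPKM of at least 1, 3 with the trend, 4 by the ordinary model, 0 with the block, 0 with the added libraries, 2 without both number 4 libraries and 1 to 4 without 1 library. The cause of these shifts was not tested. The 31 early genes at an unadjusted p under 0.05 in the NAc were 27 to 31 under every alternative run, and 29 with the replicate block. The 0 higher after risperidone became 0 to 2 without 1 library.

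Signs turned for differences near 0. Without both PFCx number 4 libraries, Fos was at -0.0071 and Nr4a1 at -0.017 in the PFCx, and after rescaling to a common upper quartile Nr4a1 was at -0.025 and Sgk1 at -0.024. Without 1 library, values ran from -0.028 to 0.078 for Dclk1, -0.062 to 0.027 for Drd1 and -0.0041 to 0.163 for Per1 in the NAc, and from -0.020 to 0.191 for Fos, -0.052 to 0.093 for Nr4a1 and -0.045 to 0.082 for Sgk1 in the PFCx. Correlations of same-numbered libraries ran from 0.0874 to 0.440 over genes in the PFCx, and from 0.0341 over transcripts. In each case 8 of 8 libraries of a tissue were most like their own number. The replicate block was used only as an alternative. Low genes rest on few aligned bases, which limits the calls on Gm26189, Ifi27l2a and Gm26080.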

Other observations

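Other gene lists held few differences. Heat shock and cold-induced genes had a higher mean after haloperidol for 15 of 18 members in NAc and 13 of 18 in the PFCx, with medians of 0.10 and 0.06. At an unadjusted p under 0.05, 1 of the 18 was higher after haloperidol in each tissue, where 2.93% and 2.32% of all genes were. Their sums were 672 to 731 FPKM after haloperidol and 620 to 645 FPKM after risperidone in the NAc, without overlap, and overlapped in the PFCx. Saline in the NAc, at 614 to 694 FPKM, overlapped both drugs. Medians of the clock genes were 0.00 in NAc and -0.01 in the PFCx, and those of the neuropeptide precursors 0.01 and -0.02. For the astrocyte markers, 9 of 12 had a higher mean after haloperidol in NAc and 2 of 12 in the PFCx, 0 of them at an unadjusted p under 0.05.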
